A study of Oryza sativa with 6 samples.

Results

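A-type and B-type cyclin genes of rice were examined in 5 members, CYCA1-4, CYCA3-2, CYCB1-1, CYCB1-3 and CYCB2-2. Each was taken by the identifier of 1 probe set, and they are 5 of the 17905 genes that the annotation pairs with a probe set of their own on the array. RNA from whole seedlings of the japonica type, aged 3 weeks and raised in artificial soil, had been hybridised to 6 Affymetrix rice genome arrays. The 3 Epi-df arrays and the 3 wild type arrays are biological replicates per the labels, which do not say whether each was a single plant or a pool. The Epi-df plants are known dwarfs with an epigenetic allele of FIE1, a Polycomb group gene. The labels name no other allele or treatment, and the groups shared age and growth conditions. The Epi-df label was not checked here against a probe set for FIE1.

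Cyclins are the partner proteins that switch on cyclin-dependent kinases (CDKs) at set stages of the cell cycle. A-type cyclins act from DNA replication onwards into mitosis, and B-type cyclins act at the entry into mitosis, after which the anaphase-promoting complex (APC/C) marks both for destruction. In plants the transcripts of B-type cyclins build up in G2 and M phase, so in a seedling they come mostly from the small share of cells that still divide, in meristems and at leaf bases. In RNA from whole seedlings, fewer dividing cells and less transcript per dividing cell cannot be told apart.

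The arrays were alike in overall level, with a median intensity from 109.1 to 114.5 in Epi-df and from 108.1 to 114.5 in wild type. GAPDH probe sets, whose 3' signal exceeds their 5' signal more in degraded RNA, gave a 3' to 5' ratio of 1.63 to 2.11 in Epi-df and 1.96 to 2.33 in wild type. Of the 6 leaf genes measured, the Rubisco small subunit gene RBCS-C was among the 2 brightest. It was at 23271 to 24905 in Epi-df and 24112 to 24975 in wild type. It does not stand for the other leaf genes: the 5 tested had a median log2 change of 0.28, with a lowest limma adjusted p of 0.078. Summed over the 2 pollen genes measured, intensity was 142.2 to 167.5 in Epi-df and 139.5 to 175.8 in wild type. The 3 arrays in each group limit the precision of every value below.

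None of the 5 cyclins differed between Epi-df and wild type beyond the spread between replicates. Their log2 changes were all above 0 and small, from 0.01 for CYCA1-4 to 0.18 for CYCB1-3, with a median of 0.05, and the groups overlapped for each of them. Among all tested probe sets, 9.81% had groups that did not overlap with Epi-df higher and 9.76% with Epi-df lower. Of all 34355 tested probe sets, 53.9% had a change above 0, and their median was 0.01. The signs of the 5 cyclins were not stable, with 2 of 5 above 0 without Epi-df replicate 1, 1 of 5 without Epi-df replicate 2 and 2 of 5 without wild type replicate 1. Within the Epi-df group, however, 3 of the 5 split alike. CYCA3-2, CYCB1-1 and CYCB2-2 were above all wild type arrays in Epi-df replicates 1 and 2 (17.4% of all tested probe sets). They were also below all wild type arrays in Epi-df replicate 3, and 3.04% of all tested probe sets had this whole split. CYCA1-4 and CYCB1-3 did not show this split. A probe set was called when limma gave a Benjamini-Hochberg adjusted p under 0.05 over all tested probe sets and the change was at least 2-fold. All 5 cyclins were tested and 0 were called, while 0.608% of all tested probe sets were called (0.175% higher and 0.434% lower in Epi-df). At an unadjusted limma p under 0.05 the count was also 0 of 5, against 14.4% of all tested probe sets.

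CYCA1-4 (locus LOC4338177) belongs to the A1 class of cyclins. Its intensity was 507.2, 615.5 and 493.3 in Epi-df replicates 1, 2 and 3, against 466.7, 581.0 and 552.1 in wild type replicates 1, 2 and 3. The groups were interleaved, with the highest value in Epi-df replicate 2 and the lowest in wild type replicate 1. The means were 538.6 ± 66.9 in Epi-df and 533.2 ± 59.4 in wild type (SD, n = 3 each). Its log2 change, Epi-df minus wild type on the log2(intensity + 16) scale, was 0.01 ± 0.12 (SE, limma adjusted p = 0.980), with a 95% interval from -0.27 to 0.30. This interval leaves out a 2-fold difference in either direction. The sign of the change turned when single arrays were left out, with values from -0.08 to 0.08.

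CYCA3-2 (LOC4352642) belongs to the A3 class, whose members are known in other plants for expression around the G1 to S transition. Its intensity was 341.7, 352.4 and 238.4 in Epi-df replicates 1, 2 and 3, against 272.1, 298.5 and 315.3 in wild type replicates 1, 2 and 3. Epi-df replicates 1 and 2 lay above all wild type arrays and Epi-df replicate 3 below all of them. The means were 310.8 ± 63.0 in Epi-df and 295.3 ± 21.8 in wild type, a coefficient of variation of 20.3% in Epi-df and 7.39% in wild type. The log2 change was 0.05 ± 0.15 (SE, limma adjusted p = 0.930; 95% interval -0.30 to 0.41). Without Epi-df replicate 3 it was 0.22 ± 0.10 and still did not pass (limma adjusted p = 0.348). Leaving out Epi-df replicate 1 gave -0.02 and leaving out Epi-df replicate 2 gave -0.04.

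**Figure D1:**
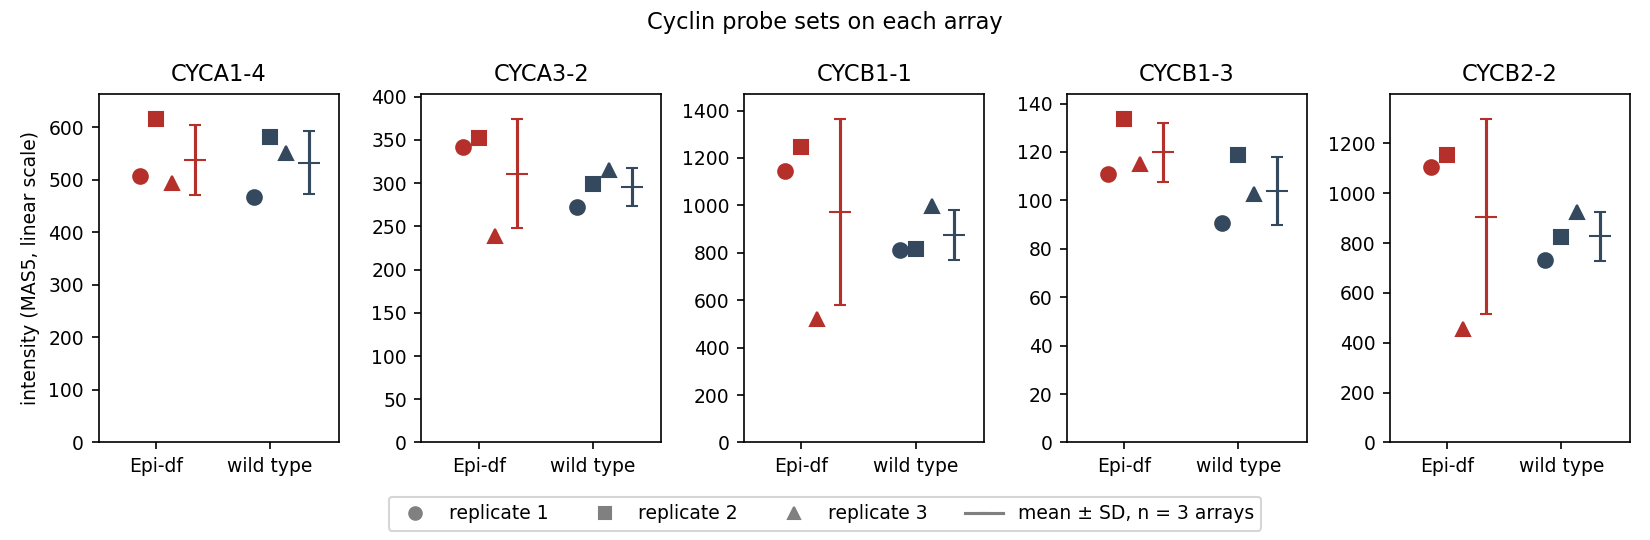
Intensity of the 5 cyclin probe sets (vertical axes, linear scale, a separate scale per gene) on each Epi-df and wild type array, with replicates as symbols and mean ± SD (n = 3) beside them. In CYCA3-2, CYCB1-1 and CYCB2-2 the triangle of Epi-df replicate 3 is below every wild type array while the other Epi-df arrays are above; CYCA1-4 and CYCB1-3 do not show this.

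CYCB1-1 (LOC4327547) encodes a B1-type cyclin, the class whose promoter and destruction box are widely used in plants to mark cells in G2 and M phase. Its intensity was 1143, 1247 and 521.5 in Epi-df replicates 1, 2 and 3, against 813.7, 814.7 and 996.3 in wild type replicates 1, 2 and 3. The spread of the Epi-df arrays enclosed that of wild type on both sides. Epi-df replicates 1 and 2 averaged 1.37 times the wild type mean, and Epi-df replicate 3 stood at 0.596 times it. The means were 970.5 ± 392 in Epi-df and 874.9 ± 105 in wild type (SD, n = 3 each), with a coefficient of variation of 40.4% in Epi-df and 12.0% in wild type. The log2 change was 0.06 ± 0.30 (SE, limma adjusted p = 0.964), with a 95% interval from -0.64 to 0.76. It was 0.45 ± 0.12 without Epi-df replicate 3 (limma adjusted p = 0.124, unadjusted p = 0.00663) and -0.11 or -0.17 without Epi-df replicate 1 or 2. The low value of Epi-df replicate 3 had already been seen, so leaving that array out favours a higher change and a smaller SE.

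CYCB2-2 (LOC4342121) encodes a B2-type cyclin, a mitotic class whose rice members are known to pair with CDKB2 kinase. Its intensity was 1107, 1155 and 455.8 in Epi-df replicates 1, 2 and 3, against 731.1, 823.9 and 925.5 in wild type replicates 1, 2 and 3. As with CYCB1-1, a pair of Epi-df arrays lay above wild type and the remaining array below it, at 1.37 and 0.551 times the wild type mean. The means were 905.7 ± 390 in Epi-df and 826.8 ± 97.3 in wild type (SD, n = 3 each). The log2 change was 0.02 ± 0.33 (SE, limma adjusted p = 0.986; 95% interval -0.74 to 0.78). Leaving out Epi-df replicate 3 gave 0.45 ± 0.11 (limma adjusted p = 0.117, unadjusted p = 0.00592), and leaving out Epi-df replicate 1 or 2 gave -0.18 or -0.21. Without Epi-df replicate 3, CYCB1-1 and CYCB2-2 were the 2 of the 5 cyclins with an unadjusted limma p under 0.05, against 16.6% of all tested probe sets. In that fit 0 of the 5 were called, against 0.597%. That array had already been seen to be low for both genes, so leaving it out favours low p-values and the count is no separate evidence. A second probe set of the same gene, with the suffix x_at that marks probes which can also bind other transcripts, gave similar values. It averaged 575.5 ± 225 in Epi-df and 535.4 ± 56.2 in wild type, with a log2 change of 0.02 (limma adjusted p = 0.987). On that probe set Epi-df replicates 1 and 2 averaged 1.32 times and Epi-df replicate 3 was 0.591 times the wild type mean.

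CYCB1-3 (LOC4326914) is the other B1-type cyclin measured, and the gene table also lists the name CycB1-1 among its synonyms, so values are tied here to the locus. Its intensity was 110.8, 133.5 and 115.1 in Epi-df replicates 1, 2 and 3, against 90.5, 118.6 and 102.6 in wild type replicates 1, 2 and 3. Wild type replicate 2 lay inside the range of Epi-df, and Epi-df replicate 3 lay between the other Epi-df arrays. The means were 119.8 ± 12.0 in Epi-df and 103.9 ± 14.1 in wild type. The log2 change was 0.18 ± 0.11 (SE, limma adjusted p = 0.546), with a 95% interval from -0.07 to 0.44. It lay between 0.10 and 0.27 when single arrays were left out. CYCB1-3 was dim: its mean over the 6 arrays was 111.9, where the filter on low values lay at 80.5, and a stricter filter at the 60th percentile left it untested.

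**Figure D2:**
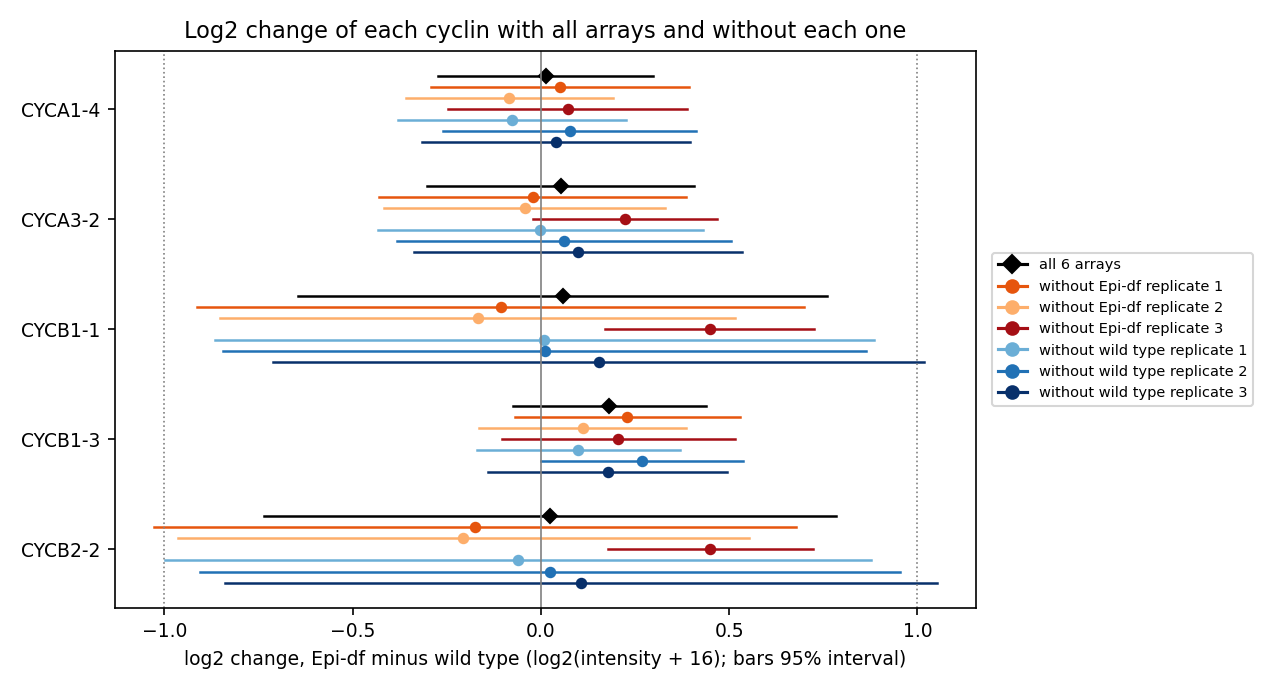
Log2 change of each cyclin, Epi-df minus wild type (horizontal axis, log2(intensity + 16) scale), with all 6 arrays (diamonds) and without each array in turn (circles), bars being 95% intervals; dotted lines mark a 2-fold difference. For CYCB1-1 and CYCB2-2 the value lies near 0.45 without Epi-df replicate 3 and below 0 without Epi-df replicate 1 or 2. Their intervals are narrowest for the fit without Epi-df replicate 3, which does not hold for CYCA1-4 or CYCB1-3.

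The 6 arrays stood in the same order for CYCA3-2, CYCB1-1 and CYCB2-2: Epi-df replicate 2 was highest, then Epi-df replicate 1, wild type replicates 3, 2 and 1, and Epi-df replicate 3. As a description over these 6 arrays, which hold both groups, Pearson's r of the log2 values was 0.991 between CYCB1-1 and CYCB2-2, 0.986 between CYCA3-2 and CYCB2-2 and 0.977 between CYCA3-2 and CYCB1-1. Over the 5 arrays without Epi-df replicate 3 these values were 0.972, 0.994 and 0.949. The B1-type pair did not run alike, with an r of 0.23 between CYCB1-1 and CYCB1-3 over 6 arrays and 0.61 over 5. CYCB1-3 was nearer to CYCA1-4, with an r of 0.77 over 6 arrays and 0.89 over 5.

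Epi-df replicate 3 was set against the mean of Epi-df replicates 1 and 2 on the log2 scale, which has no replicate check because it rests on 1 array. The difference was -1.28 for CYCB2-2, -1.17 for CYCB1-1, -0.51 for CYCA3-2, -0.17 for CYCA1-4 and -0.07 for CYCB1-3. Of all tested probe sets, 0.137% had a lower value than CYCB2-2 and 0.210% a lower value than CYCB1-1. For CYCA3-2, CYCA1-4 and CYCB1-3 these shares were 2.58%, 17.6% and 32.4%, and the median of all tested probe sets was 0.01. A value of -0.5 or less was found for 3 of the 5 cyclins and for 2.76% of all tested probe sets. Epi-df replicates above and below wild type in the manner of CYCB1-1 were found for 3 of the 5 cyclins and for 3.04% of all tested probe sets. Other arrays departed from their group too: a probe set lower by at least 1 (log2) than the mean of the other arrays of its group was met 150 times in Epi-df replicate 3, 241 times in Epi-df replicate 2 and 68 times in Epi-df replicate 1. In wild type replicates 1, 2 and 3 the counts were 20, 40 and 130. A probe set higher by at least 1 was met 203 times in Epi-df replicate 3, 51 times in Epi-df replicate 2 and 82 times in Epi-df replicate 1, and 116, 31 and 18 times in wild type replicates 1, 2 and 3.

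Another 2 A-type and B-type cyclin genes had a probe set of their own, and both ran like CYCB1-1. CYCB2-1, the second B2-type cyclin, was at 364.1, 393.2 and 211.8 in Epi-df replicates 1, 2 and 3, against 281.3, 302.1 and 347.6 in wild type. CYCA2-1, of the A2 class, was at 597, 611 and 346 in Epi-df replicates 1, 2 and 3, against 429, 443 and 471 in wild type. Each was above wild type in Epi-df replicates 1 and 2 and below it in Epi-df replicate 3. Neither was called, with log2 changes of 0.01 ± 0.22 for CYCB2-1 (limma adjusted p = 0.987) and 0.16 ± 0.20 for CYCA2-1 (limma adjusted p = 0.817). Without Epi-df replicate 3 they were 0.28 (limma adjusted p = 0.306) and 0.42 (limma adjusted p = 0.0857). Leaving out Epi-df replicate 1 gave -0.09 for CYCB2-1 and 0.04 for CYCA2-1, and leaving out Epi-df replicate 2 gave -0.14 and 0.02. Of the 7 A-type and B-type cyclin genes with a probe set, 5 thus shared this arrangement, against 3.04% of all tested probe sets. All 7 had a change above 0 without Epi-df replicate 3, as did 51.6% of all tested probe sets, but 3 of 7 did without Epi-df replicate 1, 2 of 7 without Epi-df replicate 2 and 3 of 7 without wild type replicate 1.

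D-type cyclins, which act with CDKA at the entry into the cycle, were measured in 9 genes. Of these 9 tested genes 0 were called by limma (0.608% of all tested probe sets), 3 had an unadjusted p under 0.05 (14.4% of all) and 7 had a log2 change above 0 (53.9% of all). Their median was 0.20, and it lay between 0.17 and 0.30 when single arrays were left out. CYCD4-1 was at 543, 446 and 317 in Epi-df replicates 1, 2 and 3, against 282, 313 and 366 in wild type, a log2 change of 0.40 ± 0.19 (limma adjusted p = 0.414). CYCD4-2 had a change of 0.35 ± 0.13, CYCD5-2 one of -0.19 ± 0.08 and CYCD3-1 one of -0.25 ± 0.18, with limma adjusted p from 0.277 to 0.622. In 1 of the 9, CYCD5-3, Epi-df replicates 1 and 2 were above and Epi-df replicate 3 below all wild type arrays, against 3.04% of all tested probe sets. Epi-df replicate 3 was lower by 0.5 or more in 2 of the 9, CYCD4-1 and CYCD3-1, against 2.76% of all. Epi-df replicates 1 and 2 were both above all wild type arrays in 6 of the 9, against 17.4% of all. The cyclins of other classes, several of which act in transcription rather than division, had 0 of 8 tested genes called and 0 with an unadjusted limma p under 0.05, against the same 0.608% and 14.4%, with a median log2 change of 0.07. None of these 8 had Epi-df replicate 3 lower by 0.5 or more. CYCP2-1 was at 0.21 ± 0.18, CYCC1-1, known from the Mediator complex, at 0.07 ± 0.08, and CYCT1-2 and CYCT1-4, partners of kinases that act on RNA polymerase II, at -0.17 ± 0.08 and -0.13 ± 0.07.

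**Figure D3:**
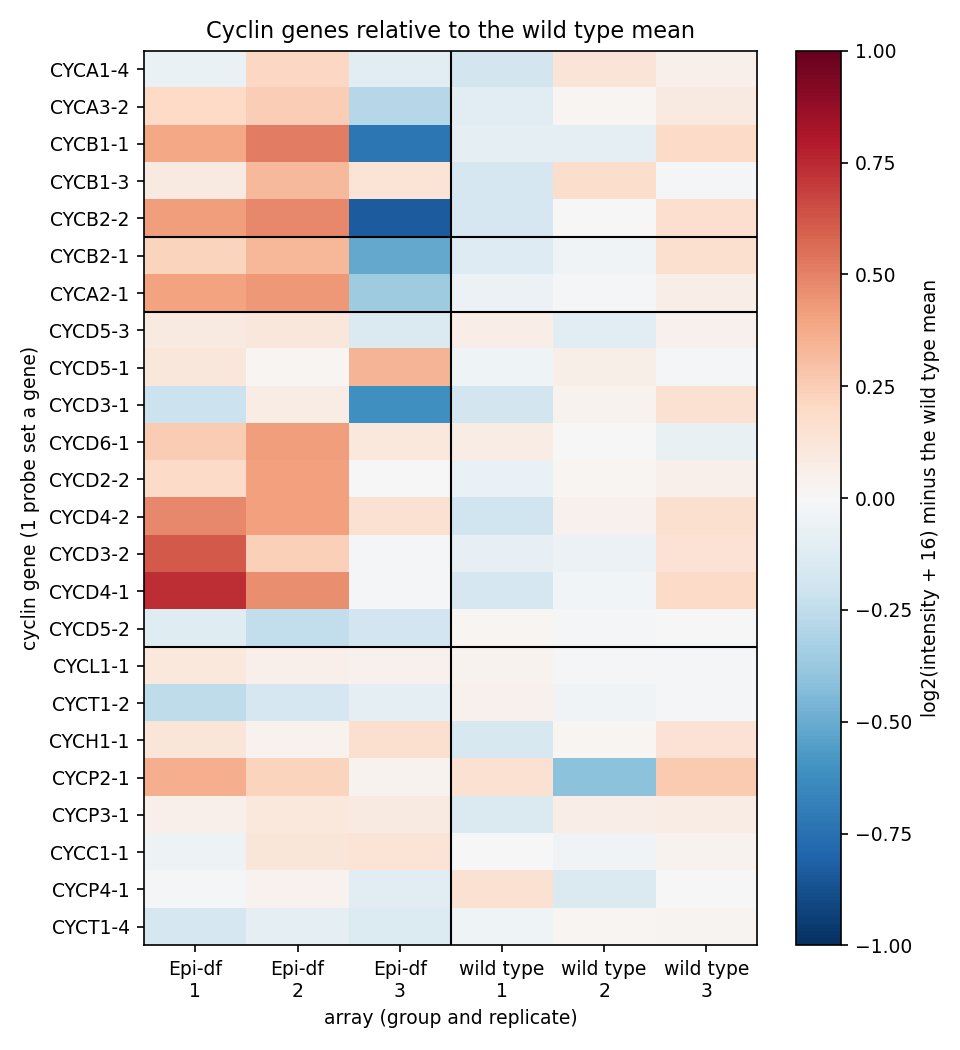
Cyclin genes (rows, 1 probe set a gene: the 5 described first, then the other A-type and B-type, the D-type and the remaining classes, parted by lines) on each array (columns), coloured by log2(intensity + 16) minus the wild type mean. The dark blue cells of Epi-df replicate 3 are those of CYCB2-2, CYCB1-1, CYCD3-1 and CYCB2-1, and of the remaining classes CYCP2-1 has the widest spread of colour.

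CDKs and their regulators had 0 of 19 tested genes called by limma and 3 with an unadjusted p under 0.05, a share near the 14.4% of all tested probe sets. Their median log2 change was -0.002, with 9 genes above 0 and 10 below, where 53.9% of all tested probe sets were above 0. KRP5, of the family of CDK inhibitors, had the largest change of the list at 0.56 ± 0.21 (limma adjusted p = 0.261), and RBR1, a retinoblastoma-related repressor of S phase entry, was at 0.32 ± 0.13. KRP1 was at 0.14 ± 0.07 and CKS1, a small CDK-binding subunit, at 0.09 ± 0.09. CDKB2-1, the mitotic kinase known to bind B2-type cyclins in rice, was chosen after its values were seen. It was at 945, 868 and 462 in Epi-df replicates 1, 2 and 3, against 637, 622 and 730 in wild type, with a log2 change of 0.13 ± 0.25 (limma adjusted p = 0.890). It was the 1 gene of the list with Epi-df replicate 3 lower by 0.5 or more, and Epi-df replicates 1 and 2 were above all wild type arrays, as in the B2-type cyclins. CKS1 had this arrangement too, by smaller amounts, at 2272, 2094 and 1878 in Epi-df replicates 1, 2 and 3, against 1940, 1978 and 1936 in wild type. CDKA-1 and CDKA-2, with log2 changes of 0.06 ± 0.08 and 0.19 ± 0.11, did not have it.

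RSS1, which keeps meristems dividing under salt stress and is itself a target of the APC/C, was the 1 gene measured from the list of APC/C and spindle checkpoint genes. It was at 472.1, 494.0 and 244.1 in Epi-df replicates 1, 2 and 3, against 371.6, 341.9 and 408.4 in wild type, again above and then below (log2 change 0.05 ± 0.25, limma adjusted p = 0.965). Mitotic and cytokinetic genes had 0 of 6 called and 1 with an unadjusted limma p under 0.05, against 0.608% and 14.4% of all tested probe sets. All 6 had a change above 0, against 53.9% of all, with a median of 0.09. That median was 0.28 without Epi-df replicate 3, and leaving out Epi-df replicate 1 or 2 brought it to 0.0042 or -0.00090, with 3 of 6 above 0 in either case. Of these 6, 3 had the arrangement seen for CYCB1-1, against 3.04% of all tested probe sets. They were the kinesin genes KCH1 and NACK, the second named for cytokinesis factors of tobacco, and CENH3, the histone of centromeres. KCH1 was at 229.3, 248.0 and 138.6 in Epi-df replicates 1, 2 and 3, against 176.8, 175.2 and 197.9 in wild type (log2 change 0.11 ± 0.20, limma adjusted p = 0.872). NACK and CENH3 were chosen after their values were seen, and Epi-df replicate 3 was lower than the other Epi-df arrays by 1.03 and 0.48 on the log2 scale. PSS1, a kinesin gene with every Epi-df array above every wild type array, was at 0.34 ± 0.11 on the log2 scale (limma adjusted p = 0.206). SRS3, a kinesin gene of grain size, was at 0.07 ± 0.07, and MYB3R-2, of the family of factors that activate B-type cyclin genes, at 6.89e-05 ± 0.08.

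DNA replication genes had 0 of 28 tested genes called by limma and 3 with an unadjusted p under 0.05, against 0.608% and 14.4% of all tested probe sets. A change above 0 was found for 23, against 53.9% of all, with a median of 0.13. The median was 0.23 with Epi-df replicate 3 left out, 0.061 with replicate 1 left out and 0.077 with replicate 2 left out. The helicase subunit genes MCM5 and MCM4 had log2 changes of 0.41 ± 0.18 and 0.38 ± 0.19, PCNA, the sliding clamp gene, one of 0.23 ± 0.15 and RPA14 one of -0.07 ± 0.09, with limma adjusted p from 0.366 to 0.808. Epi-df replicate 3 was lower by 0.5 or more in 8 of the 28, against 2.76% of all tested probe sets, and in 6 it was below and the other Epi-df arrays above all wild type arrays, against 3.04%. Without Epi-df replicate 3 the lowest limma adjusted p of this list was 0.0425, for RPA32A, a subunit of replication protein A. Its log2 change in that fit was 0.51, under 2-fold. With all arrays the change of RPA32A was 0.34 (limma adjusted p = 0.360). Epi-df replicate 3 was low for this gene, by 0.53 on the log2 scale, so leaving that array out favours a low p. The 5 core histone genes measured, all for H2B, had 0 calls and 0 with an unadjusted limma p under 0.05, against 0.608% and 14.4% of all tested probe sets. Their median log2 change was 0.06, and it lay between -0.0009 and 0.12 when single arrays were left out. H2B.10 was at 0.18 ± 0.12, H2B.7 at 0.08 ± 0.10, H2B.5 at 0.02 ± 0.08 and H2B.11 at 0.01 ± 0.06.

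Over the 78 tested genes of these lists, the 5 cyclins left out, limma called 0 with all arrays and 0 without Epi-df replicate 3. With all arrays 10 of the 78 had an unadjusted limma p under 0.05, against 14.4% of all tested probe sets. The arrangement of CYCB1-1 was found for 16 of them, against 3.04% of all tested probe sets. Beyond those named above, the 16 held the replication genes PCNA, POLD2, MCM6, MCM7, ORC1 and RPA32C and the histone gene H2B.5. Without Epi-df replicate 3, 29 of the 78 had an unadjusted limma p under 0.05 with a higher level in Epi-df, against 8.55% of all tested probe sets. That array had already been seen to be low for many of these genes, so leaving it out favours a high count. The median log2 change of the 78 was 0.12 without Epi-df replicate 3, but 0.035 or 0.049 without Epi-df replicate 1 or 2. Genes measured on the same arrays are not independent observations.

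**Figure D4:**
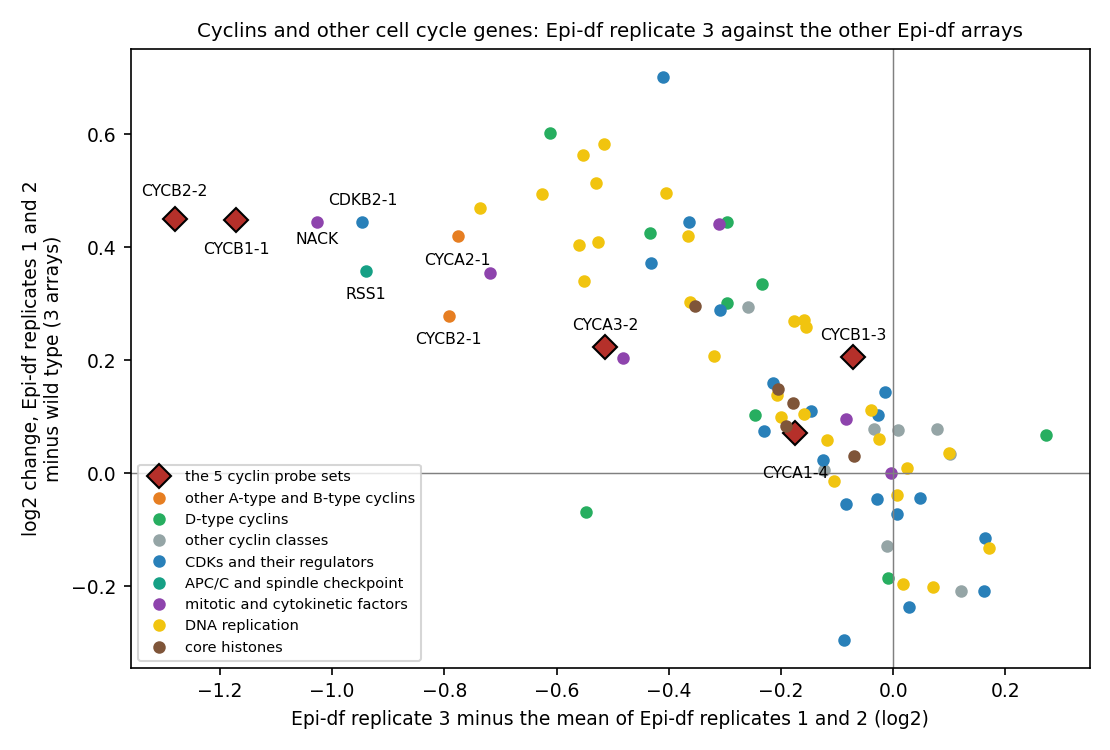
Each point is a cell cycle gene: the horizontal axis is Epi-df replicate 3 minus the mean of Epi-df replicates 1 and 2 (log2), and the vertical axis the log2 change of Epi-df replicates 1 and 2 against the 3 wild type arrays. Both axes use Epi-df replicates 1 and 2, so part of the downward slope is built in; CYCB2-2 and CYCB1-1 lie farthest left at -1.28 and -1.17, with NACK, CDKB2-1 and RSS1 nearest to them.

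Leaving out the 5 cyclins and other probe sets of their genes, the named genes whose levels ran most like CYCB1-1 over the 6 arrays were ranked by Pearson's r of the log2 values, a measure chosen after the values were seen. They were KIN10A (0.997), BC1L2 (0.995), KIN10B (0.994), KIN12C (0.993), RSS1 (0.993), CYCB2-1 (0.992), KIN10C (0.988) and KCH1 (0.987), and without Epi-df replicate 3 the values were 0.961 to 0.992. The 5 genes with names of the form KIN or KCH are genes for kinesins, motor proteins that move along microtubules, and BC1L2 is of the COBRA-like family of cell wall proteins. KIN10A was at 603.2, 615.4 and 259.1 in Epi-df replicates 1, 2 and 3, against 408.2, 414.7 and 495.9 in wild type. KIN12C was at 756.1, 773.1 and 366.9 in Epi-df replicates 1, 2 and 3, against 524.2, 556.4 and 620.2 in wild type. Both had the order of groups seen for CYCB1-1, with log2 changes of 0.07 (limma adjusted p = 0.957) and 0.08 (limma adjusted p = 0.938). An r of at least 0.9 with CYCB1-1 was met by 535 of the 34355 tested probe sets.

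Ranked by likeness to the mean standardised profile of all 5 cyclins, other genes led. They were the beta tubulin gene TUB4 (r = 0.985), the proline transporter gene PROT (0.975), PCF1 (0.974), a TCP factor known to bind the PCNA promoter in rice, and the splicing factor gene RSZP21 (0.970). The phytoene synthase gene PSY2 (0.969), SNAT2 (0.967), the peroxisome gene PEX11-4 (0.964) and the phosphate exporter gene PHO1-2 (0.962) followed. TUB4 was at 117.1, 122.3 and 103.3 in Epi-df replicates 1, 2 and 3, against 107.0, 117.0 and 113.9 in wild type. Its array-to-array differences were thus far smaller than those of CYCB1-1, since r takes no account of size. An r of at least 0.9 with this profile was met by 481 tested probe sets.

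Markers of iron status and of tissues were read on the same arrays. The summed intensity of 5 genes that rise under iron deficiency was 583.3, 721.2 and 5976 in Epi-df replicates 1, 2 and 3, against 572.2, 831.3 and 542.8 in wild type. In 4 of the 5 Epi-df replicate 3 was above every other array: the iron transporter gene NRAMP1 was at 185.3, 270.5 and 2687 in Epi-df replicates 1, 2 and 3, against 160.5, 339.9 and 199.4 in wild type, and NAS1, NAS2 and NAAT1 had the same arrangement. YSL15 was at 111.7, 110.7 and 120.3 in Epi-df, against 109.8, 126.0 and 104.5 in wild type. The 3 root genes summed to 2411, 1755 and 1198 in Epi-df replicates 1, 2 and 3, against 2271, 1396 and 3064 in wild type, with LSI2 dim in all arrays at 20.7 to 26.3. The 2 that were tested went opposite ways, with a log2 change of -0.59 for NAS3, the brighter, and 0.44 for LSI1. Their lowest limma adjusted p was 0.184, and the sum is no common reading of the 3 genes. The 6 leaf genes summed to 65046, 71329 and 59738 in Epi-df, against 58414, 60056 and 60002 in wild type. Epi-df replicate 3 lay within the wild type range of this sum, which the brightest genes dominate. The mean log2 level of the 5 tested leaf genes, relative to wild type, was 0.198, 0.385 and 0.035 in Epi-df replicates 1, 2 and 3. In wild type it was -0.052, 0.024 and 0.028. Every Epi-df array was above every wild type array in 2 of the 5, against 9.81% of all tested probe sets, and 0 were called, against 0.608%. The 4 KNOX genes that mark meristems summed to 742.0, 384.7 and 444.5 in Epi-df, against 302.9, 285.3 and 349.1 in wild type, with Epi-df replicate 3 between the other Epi-df arrays. Only 2 of the 4 passed the filter on low values, and they went opposite ways. OSH71 was at 233.4, 134.6 and 197.0 in Epi-df, against 28.2, 25.9 and 90.6 in wild type, without overlap. On the log2 scale it stood at 1.78 ± 0.36 and was not called (adjusted p = 0.0605 by limma). OSH43 stood at -0.15 ± 0.09 (adjusted p = 0.554 by limma). OSH1 and OSH6 were untested, and OSH1 was at 268.2, 17.6 and 18.8 in Epi-df, against 21.2, 13.6 and 30.2 in wild type. The GAPDH 3' to 5' ratio was 2.11, 1.63 and 1.68 in Epi-df replicates 1, 2 and 3, against 1.96 to 2.33 in wild type. The part of iron status, of root or meristem share or of RNA quality in the cyclin values of Epi-df replicate 3 was not tested.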

How the data were processed

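The deposited values are linear intensities per probe set, which the authors made with MAS5, as the submitters' processing notes list. Its version, the scaling target and detection calls are not given in the sources used here. Intensities were analysed as log2(intensity + 16) without further scaling, by limma 3.58.1 (R 4.3.3) with lmFit and a trended eBayes, two-sided and with no replicate block. A filter at the 40th percentile of the mean log2 level kept 34355 of 57258 probe sets. Log2 changes on this scale understate those of dim probe sets. Gene names came from GEO's platform annotation, updated through RefSeq's gene table, and in the lists a gene is represented by its brightest probe set.

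The cyclins and lists were chosen with earlier results of these data known. The text names the 5 cyclins, the other probe set of a member gene and the 8 genes most like the mean profile. Of each cell cycle list it names the called genes or otherwise the 2 with the largest change and the 2 with the highest mean. Other genes, marker genes included, were picked with their values in view. Simulated arrays were used to test the fit. Alternatives were other pseudocounts, filters, scalings, spread models, array weights, a replicate block and leaving out each array. No sequences are shown, and no 2 arrays held identical values. Same-numbered arrays deviated together by correlations of 0.139, 0.336 and -0.054, against -0.293 to 0.125 for arrays of different number. The highest values, 0.336 and 0.139, were thus between same-numbered arrays, and a pairing is neither shown nor excluded. The main fit did not pair the arrays, and the replicate block was run as an alternative.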

Additional observations from a re-analysis of the deposited data

How the results depend on the processing

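No cyclin was called under any alternative that was run. The count of called probe sets over the whole table, 209, was 319 with the replicate block, 496 at 1.5-fold and 617 with no fold threshold, and lay between 108 and 250 when single arrays were left out (108 without wild type replicate 1 and 114 without wild type replicate 2). Under the other filters, pseudocounts, scalings, spread models and array weights it was 156 to 250. The replicate block changed no call among the cyclins or the cell cycle lists. The log2 change of CYCA1-4 was -0.019 with array weights. When single arrays were left out, the log2 change ran from -0.084 to 0.076 for CYCA1-4, from -0.043 to 0.22 for CYCA3-2, from -0.17 to 0.45 for CYCB1-1 and from -0.21 to 0.45 for CYCB2-2, with the highest values of CYCA3-2, CYCB1-1 and CYCB2-2 without Epi-df replicate 3. List medians ran from -0.0098 to 0.075 for CDKs and their regulators, from -0.00090 to 0.28 for mitotic genes, from -0.061 to 0.35 for the other A-type and B-type cyclins, from -0.13 to 0.36 for RSS1, from 0.061 to 0.23 for DNA replication, from -0.00095 to 0.12 for core histones and from 0.17 to 0.30 for D-type cyclins, all highest without Epi-df replicate 3, and from 0.027 to 0.072 for the other cyclin classes. The cause of these shifts was not tested. With 3 arrays a group, differences of the size seen for CYCB1-1 in Epi-df replicates 1 and 2 could not be told from the spread of the group.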
